A study of Ovis aries with 2 samples.

Results

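Collagen genes encode the chains that assemble in threes into the fibrils, networks and filaments of the extracellular matrix. They were taken here by name: every gene whose symbol is COL, a number, A and a number, listed for both libraries and with at least 20 unique molecular identifiers (UMIs, counted RNA molecules) over both. The pattern matched 43 symbols, and 41 of them met the minimum, out of 16717 genes that met it among 23141 listed. COL10A1, with 5 UMIs, and COL6A5, with 1, did not. The chains were measured by droplet single-cell RNA sequencing of dissociated anterior pituitaries of Hu sheep, with 1 library from animals aged 3 months and 1 from animals aged 6 months. No genetic change or treatment was named for either group, and no source used here gives the number or sex of the animals. The tissue was digested with type IV collagenase, an enzyme that cuts matrix, before cells were loaded. The anterior pituitary holds hormone-secreting endocrine cells, stem cells of the folliculostellate kind, blood vessels, a small stroma and immune cells.

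Fibrillar collagens such as types I and III give tissue its tensile strength, and a type I molecule is usually made of a pair of alpha-1 chains and an alpha-2 chain. Type IV chains form the sheet-like network of basement membranes, which surrounds capillaries and epithelial cell cords, and type VI chains form beaded filaments beside cells. In the pituitary, fibroblasts, pericytes and endothelial cells are known sources of matrix, and stem cells contact a basement membrane.

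The 3-month library held 18961 cell barcodes and 142479651 UMIs (median 4361 UMIs per barcode), and the 6-month library 15031 barcodes and 175239612 UMIs (median 7434), with 81 barcode sequences in both. After filtering, 15446 and 12683 cells remained. Clusters were named only by marker genes and are called stromal-like (143 cells at 3 months and 29 at 6 months), endothelial-like (1876 and 435), stem-like (3629 and 2089), endocrine-like (5413 and 5412) and immune-like (1510 and 2891). Another 2875 and 1827 cells stayed unnamed. The summed level of 10 fibroblast markers was 7309 and 5528 CPM (UMIs of a gene per 1000000 UMIs of the class) in stromal-like cells, 483 and 414 CPM in stem-like cells and 30.3 and 9.20 CPM in immune-like cells. The summed level of 11 mural (pericyte and smooth muscle) markers was 4728 and 1662 CPM in stromal-like cells, against 244 and 231 CPM in stem-like cells. The endothelial markers CLDN5 and VWF were at 0 UMIs in the stromal-like cells of both libraries, although all 12 endothelial markers together reached 1127 and 249 CPM there. Free RNA was followed through prolactin (PRL). It took 1.31% of stromal-like UMIs at 3 months and 20.3% at 6 months, and 3.08% and 10.2% of immune-like UMIs. The stromal-like PRL share at 6 months was 0.583 of the share over all cells. For the other hormone genes this ratio was 0.0405 (GH), 0.0382 (CGA) and 0.0242 (LHB). What part of the stromal-like PRL was free RNA was not tested.

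Free RNA was checked for each chain with immune-like cells as the pool that should carry little collagen of its own. A class was counted as holding a chain when it had at least 20 UMIs of it, a CPM at least 3-fold above the immune-like pool with a 95% interval above 1, and at least 0.5 of the level over all cells. With 1 library per age there is no replicate and no test between ages or classes. Intervals are exact Poisson or conditional binomial intervals and cover counting error only, and age cannot be told apart from library.

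In the 3-month library, stromal-like cells held 23 of the 41 chains, where 5.77% of all 15929 genes met the same rule. In the 6-month library they held 12, against 1.44% of 15855 genes, and all 12 were among the 23. Stem-like cells held 22 chains at 3 months (21.7% of all genes) and 24 at 6 months (21.8% of all genes), with 22 in both. Endothelial-like cells held 10 (12.1% of all genes) and 5 (9.02% of all genes), with 5 in both. Endocrine-like cells as a whole held 1 (14.7% of all genes) and 2 (10.8% of all genes), with COL5A2 in both. The stromal-like share of chains was therefore far above the share of all genes, the stem-like share was also above it, and the endocrine-like share was below it. With the 129 lymphocyte-like cells of the 3-month library as the reference in place of the whole immune-like pool, stem-like cells held 10 chains at 3 months, where 16% of all genes were held. That reference was so small that a chain below 5.64 CPM could not reach 3-fold above it.

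Sorted by the classes that held them in both libraries, 5 chains belonged to stromal-like cells alone (COL1A1, COL6A1, COL6A2, COL6A3 and COL14A1). A further 5 belonged to stromal-like and stem-like cells (COL1A2, COL3A1, COL5A1, COL12A1 and COL18A1), and COL4A1 and COL4A2 to stromal-like, endothelial-like and stem-like cells. Endothelial-like cells alone held COL8A1, COL13A1 and COL15A1. Stem-like cells alone held 15 chains, namely COL2A1, COL11A1, COL11A2, COL27A1, all 3 type IX chains, COL16A1, COL21A1, COL23A1, COL26A1 and COL4A3 to COL4A6. COL5A2 was held by endocrine-like cells alone, and 10 chains were held by none in both. These lists depend on depth, because the stromal-like class had 405681 and 152866 UMIs in total and the stem-like class 27617661 and 24820107. At 3 months alone, stromal-like cells held a further 11 chains that the lists give to other classes: COL4A3 to COL4A6, COL11A1, COL16A1 and COL27A1 of the stem-like set, COL8A1, COL13A1 and COL15A1 of the endothelial-like set, and COL5A2. Endothelial-like cells at 3 months alone also held COL5A1, COL5A2, COL18A1, COL21A1 and COL27A1, and stem-like cells at 6 months alone COL6A3 and COL15A1. A chain listed for 1 class alone was thus held by no other of the 4 classes in both libraries, though some were in 1 library. Without the minimum of 20 UMIs, stromal-like cells held 26 chains at 6 months.

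**Figure D1:**
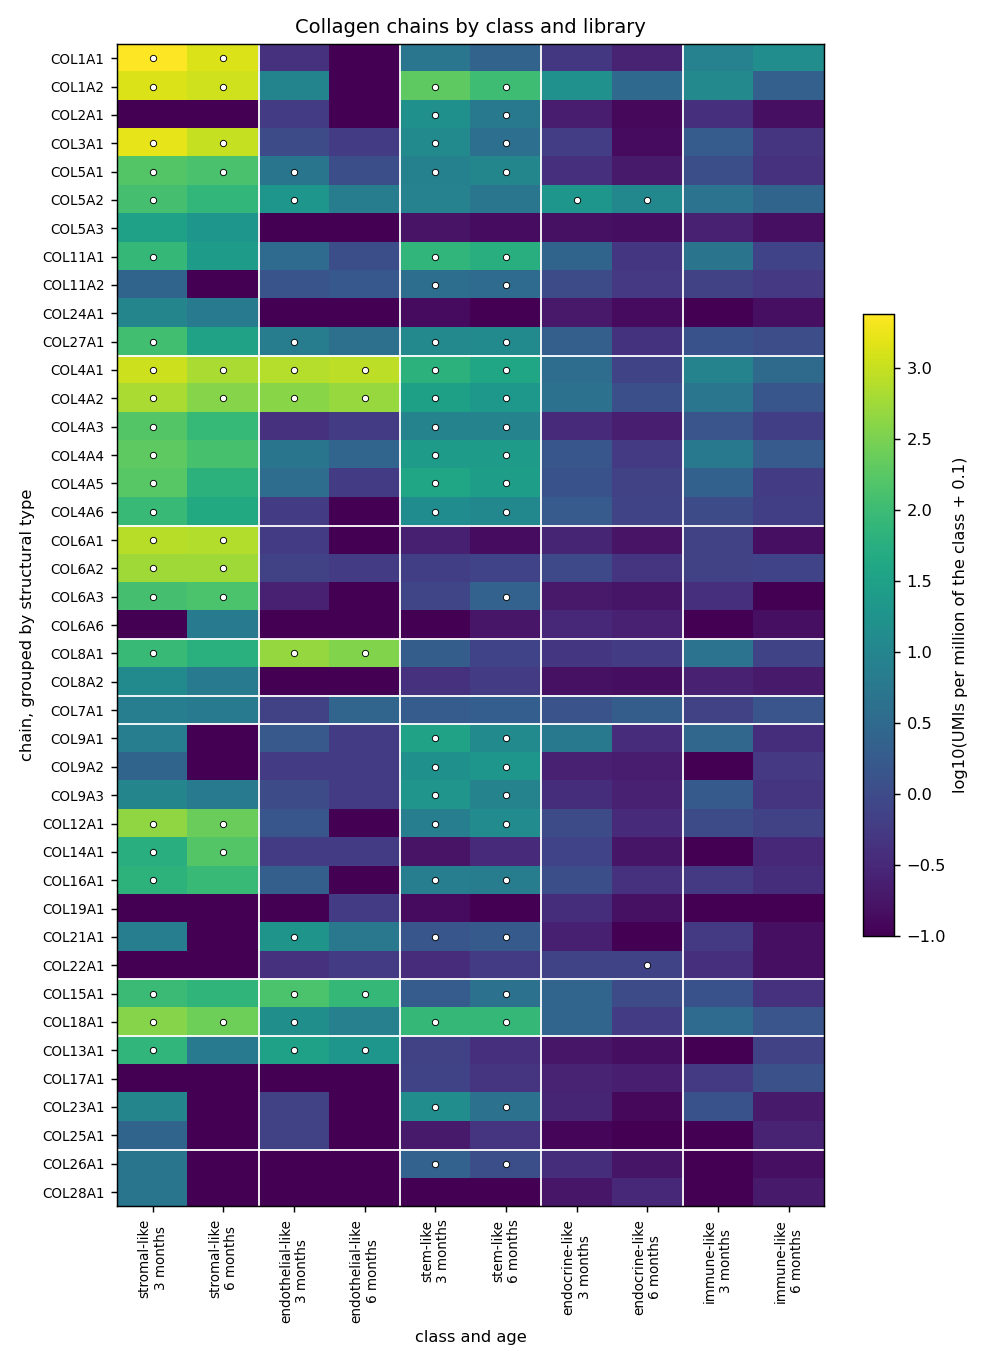
Level of each of the 41 collagen chains (rows) in 5 cell classes (columns) of the 3-month and 6-month libraries, as log10(CPM + 0.1) in colour, with a white dot where the class held the chain above free RNA. Stromal-like columns carry 23 and 12 dots, stem-like columns 22 and 24, endothelial-like columns 10 and 5, and endocrine-like columns 1 and 2.

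Type I collagen was divided unequally between its chains. COL1A1 (gene 443483), the alpha-1 chain, had 966 UMIs in stromal-like cells at 3 months, or 2381 CPM (2233 to 2536), and 211 UMIs, or 1380.3 CPM (1200.3 to 1580), at 6 months. Stem-like COL1A1 was 5.21 and 2.34 CPM, below its level in immune-like cells (8.58 and 14.0 CPM). Stromal-like COL1A1 was thus 277-fold (213 to 368) and 98.5-fold (81.7 to 119) above the immune-like pool, and stem-like COL1A1 was not above it. COL1A2 (gene 443512), the alpha-2 chain, had 1419.8 CPM (1306 to 1541) in stromal-like cells at 3 months and 1132 CPM (969 to 1313) at 6 months. In stem-like cells COL1A2 had 5502 UMIs, or 199 CPM (194 to 205), and 2622 UMIs, or 106 CPM (102 to 110), which was 17.7-fold (14.1 to 22.5) and 50.1-fold (36.5 to 70.6) above the immune-like pool. Stromal-like cells therefore had both chains, and stem-like cells had the alpha-2 chain with little of the alpha-1 chain.

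The ratio of the 2 type I chains differed between the classes by far more than counting error. There were 0.596 COL1A2 UMIs per COL1A1 UMI in stromal-like cells at 3 months (0.537 to 0.662) and 0.820 at 6 months (0.667 to 1.007). In stem-like cells the ratio was 38.2 (32.4 to 45.4) and 45.2 (34.9 to 59.7). A high ratio was not particular to stem-like cells. It was 39.3 (27.4 to 58.5) and 19.2 (11.3 to 35.6) in endocrine-like cells. Endothelial-like cells had 29.5 (7.81 to 249) at 3 months, from 59 and 2 UMIs. Neither of these classes held COL1A2 by the rule. In immune-like cells the ratio was 1.31 and 0.151. Against COL6A1, which stromal-like cells had at high level, there were 1.78 and 1.54 COL1A2 UMIs per UMI in stromal-like cells, and 5502 COL1A2 to 4 COL6A1 UMIs and 2622 to 1 in stem-like cells. Of all COL1A2 UMIs, stem-like cells carried 57.0% and 76.5%, and stromal-like cells 5.97% and 5.05%. Of all COL1A1 UMIs, stromal-like cells carried 77.5% at 3 months and 37.7% at 6 months, when immune-like cells carried 46.2%.

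COL1A2 was spread over many stem-like cells. At full depth 2082 of 3629 stem-like cells (57.4%) had a COL1A2 UMI at 3 months and 1004 of 2089 (48.1%) at 6 months, against 3.64% and 1.00% of immune-like cells. The median depth was 5606 and 7050 UMIs in stem-like cells and 3687 and 4059 in immune-like cells. After each cell was thinned to 2000 UMIs, COL1A2 was found in 28.5% of 3508 and 17.4% of 2061 stem-like cells that were deep enough, against 1.89% of 1323 and 0.316% of 2535 immune-like cells. COL1A1 was found at full depth in 119 and 52 stem-like cells, of which 95 and 41 also had COL1A2. Thinned, COL1A1 was in 1.11% and 0.437% of stem-like and 1.06% and 2.25% of immune-like cells, and in 89.6% of 77 and 64.7% of 17 stromal-like cells. Thinning kept the stem-like share of COL1A2 above the immune-like share at both ages. Stromal markers were not absent from the stem-like class, whose 3 clusters each carried 6 to 8 of them, and 9 of 10 fibroblast markers had a UMI there in each library. SFRP1 (314 and 228 CPM) and LUM (85.3 and 82.6 CPM) made up most of the fibroblast sum, and NOTCH3 (144 and 97.8 CPM) and TAGLN (88.6 and 122 CPM) most of the mural sum. PDGFRA (0.290 and 0.443 CPM), PDGFRB (0.0362 and 0.201 CPM) and RGS5 (1.70 and 0.121 CPM) were low, and DPT had 0 UMIs. The part of these markers in the stem-like COL1A2 level was not tested.

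COL3A1 (gene 100101231), the chain of type III collagen that accompanies type I in stroma, had 1639 CPM (1517 to 1769) in stromal-like cells at 3 months and 988 CPM (837 to 1159) at 6 months. In stem-like cells COL3A1 had 12.4 and 3.87 CPM, 6.996-fold and 10.2-fold above the immune-like pool. The stromal-like level was 923-fold and 2608-fold (1235 to 6599) above that pool, and stromal-like cells carried 52.1% and 54.5% of the UMIs. COL3A1 was therefore a mainly stromal-like chain that also stood above free RNA in stem-like cells.

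**Figure D2:**
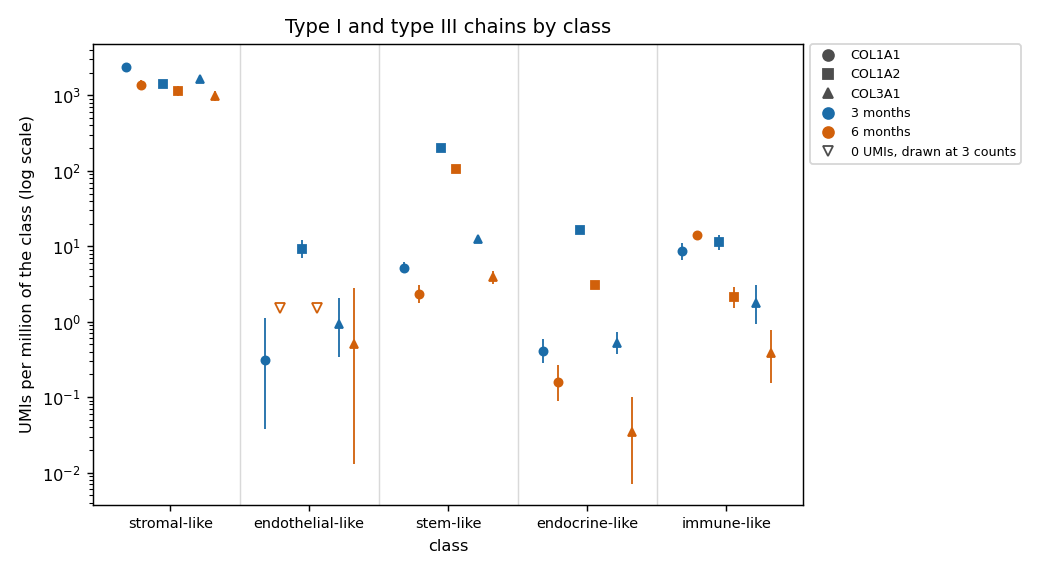
CPM (log axis) of COL1A1, COL1A2 and COL3A1 by cell class in each library, with points for the summed counts of a class, bars for exact 95% Poisson intervals, and open triangles at 3 counts where the class had 0 UMIs. Stromal-like points are highest for all 3 chains, and stem-like cells reach 199 and 106 CPM for COL1A2 but 5.21 and 2.34 CPM for COL1A1.

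The type V chains regulate the diameter of type I fibrils. COL5A1 had 158 CPM (121 to 201) and 131 CPM (79.9 to 202) in stromal-like cells and 8.29 and 10.03 CPM in stem-like cells, where it was 8.01-fold and 30.9-fold above the immune-like pool. COL5A2 had 123 and 78.5 CPM in stromal-like cells from 50 and 12 UMIs, but most of its UMIs lay in endocrine-like cells, as described with those cells. COL5A3 had 13 and 3 UMIs in stromal-like cells, too few to count as held, although these were 61.9% of its UMIs at 3 months.

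The chains known from cartilage fibrils were found in the stem-like class. COL2A1 (gene 100196905), the type II chain, had 438 UMIs at 15.9 CPM and 146 UMIs at 5.88 CPM in stem-like cells, which carried 74.6% and 83.9% of its UMIs, and it had 0 UMIs in stromal-like cells of both libraries. With only 2 and 1 COL2A1 UMIs in the immune-like pool, the folds were 53.6 (14.7 to 444) and 109 (19.2 to 4324). COL11A1 (gene 101117548), a type XI chain that joins type II fibrils, had 76.9 CPM (73.6 to 80.2) and 58.4 CPM (55.4 to 61.5) in stem-like cells, 16.2-fold and 89.9-fold above the immune-like pool. COL11A2, the other type XI chain in these data, had 3.66 and 3.34 CPM there. Stromal-like cells had COL11A1 at 81.3 CPM from 33 UMIs at 3 months and 26.2 CPM from 4 UMIs at 6 months, so that at 3 months the level was like that of stem-like cells within counting error. COL27A1, a fibrillar chain of developing cartilage, had 11.2 and 12.1 CPM in stem-like cells and 111 and 32.7 CPM in stromal-like cells, the latter from 45 and 5 UMIs.

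Fibril-associated chains sit on the surface of fibrils. The type IX chains coat type II fibrils, and all 3 were held by stem-like cells alone. COL9A1 (gene 101102992) had 33.2 and 12.3 CPM in stem-like cells, COL9A2 15.9 and 20.02 CPM and COL9A3 19.0 and 9.02 CPM. Stem-like cells carried 56.6% and 83.8% of COL9A1 UMIs and 76.4% and 88.0% of COL9A2 UMIs. In stromal-like cells the type IX chains had 0 to 4 UMIs each. The stem-like class thus had chains of types II, IX and XI, which in cartilage form a joint fibril. Whether single cells had these chains together was not tested.

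COL12A1 and COL14A1 coat type I fibrils. COL12A1 had 449 CPM (386 to 519) and 242 CPM (170 to 334) in stromal-like cells and 7.39 and 13.1 CPM in stem-like cells, 8.32-fold and 21.9-fold above the immune-like pool. COL14A1 had 56.7 CPM from 23 UMIs in stromal-like cells at 3 months, at least 128-fold above an immune-like pool without a UMI, and 164 CPM from 25 UMIs at 6 months. The COL14A1 UMIs came from 10 and 6 stromal-like cells, and 1 cell gave 12 of the 25 UMIs (48.0%) at 6 months. COL16A1 had 66.6 and 91.6 CPM in stromal-like cells and 7.42 and 6.77 CPM in stem-like cells. COL21A1 was an exception at 3 months, with its highest level in endothelial-like cells (119 UMIs, 18.6 CPM), against 1.41 CPM in stem-like cells. At 6 months endothelial-like COL21A1 had 11 UMIs, and stem-like cells carried 63.1% of its UMIs.

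The 6 type IV chains fell into a pair that endothelial-like cells held in both libraries and a second set of 4 that they did not hold. COL4A1 (gene 101115552) and COL4A2 (gene 101115805) form the network common to all basement membranes. COL4A1 had 779.7 CPM (758 to 802) in endothelial-like cells at 3 months and 885 CPM (844 to 928) at 6 months, 86.4-fold and 277-fold above the immune-like pool. In stromal-like cells COL4A1 had 1092 CPM (993 to 1199) and 654 CPM (532 to 796), so stromal-like cells were above endothelial-like cells at 3 months and below them at 6 months. Stem-like cells had COL4A1 at 65.1 and 38.4 CPM, 7.22-fold and 12.0-fold above the immune-like pool. COL4A2 followed the same order, with 391 and 508 CPM in endothelial-like, 661 and 379 CPM in stromal-like and 31.0 and 21.7 CPM in stem-like cells. Endothelial-like cells carried 61.2% and 57.1% of COL4A1 UMIs. Thinned to 2000 UMIs, 65.8% of 1377 and 73.3% of 356 endothelial-like cells had a COL4A1 UMI, against 1.44% and 0.473% of immune-like cells. Without thinning these COL4A1 shares were 74.4% and 85.3%, at median depths of 2750.5 and 3303 UMIs, against 3.05% and 1.18% of immune-like cells.

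The ratio of COL4A1 to COL4A2 UMIs varied little between these classes. It was 1.65 and 1.72 in stromal-like, 1.99 and 1.74 in endothelial-like and 2.10 and 1.77 in stem-like cells, and the 3 intervals overlapped at 6 months. At 3 months the stromal-like interval (1.42 to 1.93) lay just below the stem-like one (1.94 to 2.29). In endocrine-like cells the COL4A1 to COL4A2 ratio was 0.838 and 0.632, below all 3 classes. The 2 genes are neighbours in the reference table, as are COL4A3 with COL4A4 and COL4A5 with COL4A6.

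COL4A3 to COL4A6 replace the common pair in specialised basement membranes. In endothelial-like cells they were at or near the immune-like level: COL4A3 had 2 and 1 UMIs, COL4A6 had 3 and 0, COL4A4 had 5.01 and 2.53 CPM and COL4A5 had 3.60 and 0.506 CPM. Stem-like cells held all 4 at both ages, with COL4A5 at 38.5 and 27.7 CPM (17.4-fold and 56.8-fold above the immune-like pool), COL4A4 at 25.5 and 26.4 CPM, COL4A6 at 13.5 and 11.2 CPM and COL4A3 at 8.80 and 8.90 CPM. Stromal-like levels per UMI were higher still, with COL4A4 at 195 and 124 CPM, COL4A5 at 175 and 65.4 CPM, COL4A3 at 158 and 85.0 CPM and COL4A6 at 88.7 and 45.8 CPM. Those stromal-like levels rest on 36 to 79 UMIs per chain at 3 months and 7 to 19 at 6 months. Because the stem-like class was much larger, it nevertheless carried 55.5% to 65.9% of the UMIs of COL4A3, COL4A4, COL4A5 and COL4A6 at 3 months and 73.3% to 79.6% at 6 months.

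**Figure D3:**
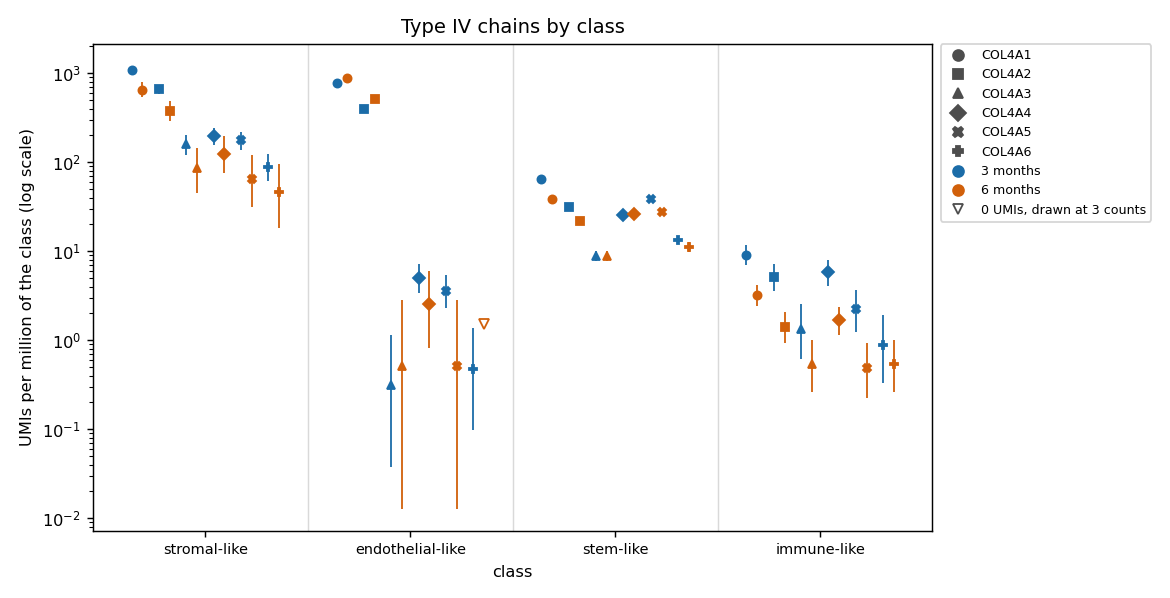
CPM (log axis) of the 6 type IV chains in stromal-like, endothelial-like, stem-like and immune-like cells of each library, with exact 95% Poisson intervals and open triangles at 3 counts for 0 UMIs. Endothelial-like cells are high for COL4A1 (779.7 and 885 CPM) and COL4A2 and low for COL4A3 to COL4A6, while stem-like cells have all 6.

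COL18A1 and COL15A1 are the multiplexins, chains of vascular and epithelial basement membrane zones whose ends can be released as endostatin-type fragments. COL18A1 (gene 101106232) had 382 CPM (324 to 447) and 262 CPM (187 to 356) in stromal-like cells. In stem-like cells it had 83.0 and 82.9 CPM, 25.5-fold and 61.3-fold above the immune-like pool, and those cells carried 62.6% and 84.8% of its UMIs. Thinned to 2000 UMIs, 15.7% and 16.98% of stem-like cells had a COL18A1 UMI, against 0.680% and 0.276% of immune-like cells. Without thinning the stem-like shares were 42.2% and 52.0% and the immune-like shares 1.39% and 0.657%. COL15A1 (gene 101102453) was divided the other way. It had 135 CPM (126 to 144) and 82.0 CPM (69.9 to 95.6) in endothelial-like cells, 1.81 and 4.19 CPM in stem-like cells and 96.1 and 72.0 CPM in stromal-like cells, the last from 39 and 11 UMIs.

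COL8A1 (gene 101107564), a short network-forming chain of vessel walls, was the most endothelial-like of all members by share. Endothelial-like cells had 3064 COL8A1 UMIs, or 480.0 CPM (463 to 497), at 3 months and 699 UMIs, or 354 CPM (328 to 381), at 6 months, which were 94.4% and 86.5% of its UMIs. That was 105-fold and 503-fold above the immune-like pool. Thinned to 2000 UMIs, COL8A1 was found in 56.0% of 1377 and 46.9% of 356 endothelial-like cells, against 0.529% and 0.0789% of immune-like cells, and unthinned in 68.0% and 64.8%, against 0.993% and 0.242%. COL4A1 per COL8A1 UMI was 1.62 and 2.50 in endothelial-like cells, 12.0 and 11.1 in stromal-like cells and 35.3 and 59.6 in stem-like cells. COL8A2, its partner chain, had 24 and 23 UMIs over all cells and none in endothelial-like cells.

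The type VI chains were mainly stromal-like, and COL6A1 had the highest stromal-like share of any chain in both libraries. COL6A1 (gene 101111927) had 324 UMIs, or 799 CPM (714 to 891), in stromal-like cells at 3 months and 112 UMIs, or 733 CPM (603 to 882), at 6 months, and these were 92.8% and 91.8% of its UMIs. Stem-like cells had 4 and 1 COL6A1 UMIs and the immune-like pool 4 and 1. COL6A2 had 569 and 556 CPM in stromal-like cells and COL6A3 121 and 137 CPM, with 72.0% and 54.1% of COL6A2 UMIs in that class. COL6A3 differed at 6 months, when stem-like cells had 56 UMIs at 2.26 CPM, or 61.5% of the UMIs, and were also counted as holding it. COL6A6, with 18 and 19 UMIs over all cells, was held by no class.

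Of the transmembrane chains, COL13A1 was endothelial-like and COL23A1 stem-like. COL13A1 (gene 101105550) had 31.8 and 19.7 CPM in endothelial-like cells, at least 71.7-fold above an immune-like pool without a UMI at 3 months and 33.2-fold (16.7 to 71.8) above it at 6 months. COL23A1 (gene 101108307) had 14.0 and 4.43 CPM in stem-like cells, which carried 69.6% and 88.7% of its UMIs. COL26A1, a short chain outside the main families, had 62 and 25 UMIs in stem-like cells, at 2.24 and 1.007 CPM. With doublets kept, the stem-like folds at 3 months were 1.53 for COL26A1 and 1.79 for COL21A1, and neither chain was then held. COL17A1, the epithelial hemidesmosome chain, and COL25A1, a neuronal chain, were held by no class.

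The 143 and 29 stromal-like cells formed 1 cluster with both fibroblast and mural markers, and it split into 4 sub-clusters, which are given by their genes. At 3 months the sub-cluster with 8 fibroblast markers (38 cells, led by PLVAP and also carrying 5 endothelial markers) had COL1A1 at 4114 CPM, COL1A2 at 2621 CPM, COL3A1 at 2629 CPM and COL12A1 at 917 CPM. The 2 sub-clusters with RGS5 and ACTA2 (45 and 47 cells) had COL1A1 at 1736 and 1455 CPM, COL1A2 at 856 CPM each, COL3A1 at 1216 and 1626 CPM and COL12A1 at 268 and 257 CPM. Levels of these 4 chains were thus higher in the fibroblast-marker sub-cluster. COL4A1 went the other way, with 771 CPM there and 1346 and 1690.0 CPM in the RGS5 sub-clusters. Of 23 COL14A1 UMIs at 3 months, 19 lay in the fibroblast-marker sub-cluster, as did 27 of 37 COL8A1 UMIs. COL6A1 had 1104 CPM there and 696 and 856 CPM in the RGS5 sub-clusters. The remaining 13 cells carried 3 fibroblast and 4 stem-cell markers. Collagen genes were left out of the clustering, but the sub-clusters were made from the same cells, so these are descriptions.

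COL5A2 (gene 101114493), the alpha-2 chain of type V, was the 1 chain that endocrine-like cells held in both libraries. It had 1418 UMIs at 19.6 CPM and 954 UMIs at 10.9 CPM there, 4.26-fold (2.99 to 6.30) and 4.396-fold (3.27 to 6.05) above the immune-like pool, and endocrine-like cells carried 71.9% and 66.4% of its UMIs. Within them it lay mainly in lactotroph-like cells, which make prolactin, at 32.8 CPM (31.1 to 34.6) and 14.1 CPM (12.2 to 16.2). In lactotroph-like cells COL5A2 was the only chain held among 41 at 3 months (9.61% of all genes), and at 6 months COL7A1 was held beside it (14.1% of all genes). Thinned to 2000 UMIs, 5.63% of 1955 and 2.91% of 1167 lactotroph-like cells had a COL5A2 UMI, against 0.454% and 0.473% of immune-like cells. Without thinning the shares were 29.2% and 10.4%, at median depths of 18618.5 and 8340 UMIs, and 1.13% and 1.21% of immune-like cells. The call for the endocrine-like class as a whole was lost in both libraries at a 5-fold threshold and with doublets kept (COL5A2 at 2.47-fold and 2.30-fold), at 3 months at resolution 2.0 (2.29-fold) and at 6 months with the stricter cell filter (2.04-fold). With that filter 0 barcodes were called doublets at 6 months, so no doublets were removed there. In lactotroph-like cells COL5A2 lost its call at 6 months with doublets kept (2.60-fold) and with the stricter filter (4.26-fold). The stricter filter had only 45 cells named lactotroph-like at 6 months.

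Other endocrine classes held few chains. Somatotroph-like cells, which make growth hormone, held COL4A2 at 17.2 and 12.3 CPM and COL4A6 at 10.1 and 10.2 CPM in both libraries, against 13.5% and 11.7% of all genes. They held COL7A1 at 3 months only and COL1A2, at 17.5 CPM from 74 UMIs, at 6 months only. Gonadotroph-like cells, which make LH and FSH, held COL15A1 at 12.8 and 14.5 CPM in both libraries, against 17.2% and 9.35% of all genes, and COL14A1 (26 UMIs) and COL16A1 (30 UMIs) at 3 months only. Corticotroph-like cells, which make ACTH, were 219 cells at 3 months, held COL1A2 at 96.6 CPM from 84 UMIs and COL11A1 at 44.9 CPM from 39 UMIs (14.8% of all genes), and were only 7 cells at 6 months. With lymphocyte-like cells as the reference, none of the 3 somatotroph-like and 3 gonadotroph-like chains held at 3 months met the rule. That reference had only 531994 UMIs at 3 months, and a chain without a UMI in it was set to 3 counts, or 5.64 CPM. A chain below 5.64 CPM could not reach 3-fold at any count, which applies to gonadotroph-like COL14A1 and COL16A1. Their loss therefore says nothing about free RNA, and chains without a UMI in the reference needed 3-fold of 5.64 CPM. With doublets kept, somatotroph-like COL4A2 at 3 months (1.60-fold) and COL1A2 at 6 months (2.87-fold) did not meet the rule. COL22A1, a chain of tissue junctions, was held by the endocrine-like class at 6 months from 61 UMIs (0.699 CPM) with 1 UMI in the immune-like pool, and the fold of 12.9 had an interval of 2.23 to 519.

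**Figure D4:**
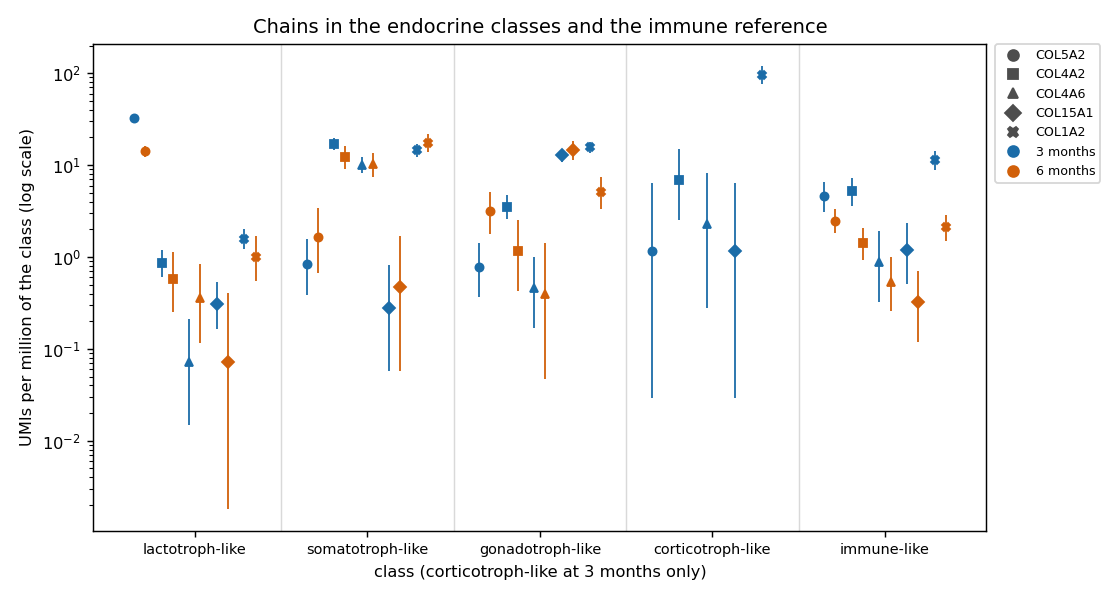
CPM (log axis) of COL5A2, COL4A2, COL4A6, COL15A1 and COL1A2 in lactotroph-like, somatotroph-like, gonadotroph-like, corticotroph-like (3 months only) and immune-like cells, with exact 95% Poisson intervals. Lactotroph-like cells are highest for COL5A2 (32.8 and 14.1 CPM) and gonadotroph-like cells for COL15A1 (12.8 and 14.5 CPM).

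COL1A1 was not evenly low in the immune-like pool at 6 months. Macrophage-like cells had 58 COL1A1 UMIs at 3 months (10.6 CPM, 1240 cells) and 205 at 6 months (36.9 CPM, 1069 cells). Lymphocyte-like cells had 0 UMIs in 129 cells and 7 in 1156 cells (1.08 CPM), so that macrophage-like cells were 34.2-fold (16.3 to 86.0) above them at 6 months. With the 0 at 3 months set to 3 counts the fold was 1.88 (0.611 to 9.36), so no difference was seen beyond counting error. At 6 months the pool against which COL1A1 was judged therefore carried some COL1A1 above the lymphocyte-like level, and its folds are lower than with lymphocyte-like cells as reference. Macrophage-like COL1A2 did not follow, with 61 UMIs at 3 months and 10 at 6 months. COL1A1 was 1.80 higher on the log2 scale (1.38 to 2.25) at 6 months in macrophage-like cells, where 6.22% of all genes compared were 2-fold higher and 2.4% were 2-fold lower. It was the only chain with enough UMIs to be compared there.

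Levels at the 2 ages were compared within each class for chains with at least 100 UMIs over both libraries, and a chain was counted as differing at 2-fold or more with at least 0.5 of the all-cell level in the higher library. This is a rule of size. In stromal-like cells 9 chains could be compared, and 0 were 2-fold higher (1.74% of all genes) and 0 were 2-fold lower (18.2% of all genes). All 9 were lower at 6 months, with a median log2 of -0.73 where the median over all genes compared was -0.39. COL1A1 went from 2381 to 1380.3 CPM, a log2 difference of -0.79 (-1.01 to -0.57), while COL6A1 (-0.12, -0.45 to 0.19) and COL6A2 (-0.03) were close to 0. Between 4.01% and 30.4% of the UMIs of COL1A1, COL1A2, COL3A1, COL6A1, COL6A3, COL12A1 and COL14A1 came from 1 cell at 3 months, and 16.1% to 48.0% did at 6 months. Stromal-like cells were 0.926% of cells at 3 months and 0.229% at 6 months. Without the cells in which PRL exceeded 10% of UMIs, 141 and 25 stromal-like cells remained, with 23 and 10 chains held and again 0 chains 2-fold apart.

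In endothelial-like cells 8 chains could be compared and 2 were 2-fold lower at 6 months (3.2% of all genes), with 0 that were 2-fold higher (2.5% of all genes). Of the 8 chains, 6 were lower, with a median log2 of -0.70 beside -0.09 over all genes compared. COL21A1 went from 18.6 CPM (119 UMIs) to 5.57 CPM (11 UMIs), a log2 difference of -1.74 (-2.78 to -0.85). COL5A2 went from 19.7 to 7.09 CPM (126 and 14 UMIs), a log2 difference of -1.48 (-2.39 to -0.68). The abundant chains moved less, with COL4A1 at 0.18, COL4A2 at 0.38 and COL8A1 at -0.44. The class itself was composed differently, since 1 cluster held 1875 of the 1876 cells at 3 months and 155 of 435 at 6 months. Within that cluster COL21A1 was at -1.35 (119 and 5 UMIs) and COL5A2 at -1.17 (126 and 6 UMIs).

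In stem-like cells 23 chains could be compared, and 6 were 2-fold lower at 6 months (1.51% of all genes) and 1 was 2-fold higher (3.64% of all genes). The median log2 of the 23 was -0.40, beside 0.03 over all genes compared. COL3A1 went from 12.4 to 3.87 CPM (-1.68, -2.02 to -1.35) and COL23A1 from 14.0 to 4.43 CPM (-1.66, -1.98 to -1.35). COL2A1 went from 15.9 to 5.88 CPM (-1.43, -1.71 to -1.16), COL9A1 from 33.2 to 12.3 CPM (-1.43, -1.62 to -1.24) and COL9A3 from 19.0 to 9.02 CPM (-1.08, -1.31 to -0.85). COL1A1, which was below the immune-like level in these cells, went from 5.21 to 2.34 CPM (-1.16, -1.62 to -0.71) and is named here after its value was seen. COL15A1 was the higher one, at 1.81 and 4.19 CPM (1.21, 0.71 to 1.73). COL1A2 was just short of 2-fold (-0.92, -0.98 to -0.85), and COL18A1 was at the same level within counting error (-0.00, -0.09 to 0.08). The type IX chains parted, with COL9A2 at 15.9 and 20.02 CPM (0.34, 0.15 to 0.52) while COL9A1 and COL9A3 were lower.

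Different clusters made up the stem-like class at each age, with 2189 and 1282 cells in 2 clusters at 3 months that had 60 and 90 cells at 6 months, and 158 against 1939 cells in the third. Within the third cluster the same 6 chains were lower, with COL23A1 at -1.99 on the log2 scale, COL1A1 at -1.97, COL2A1 at -1.76, COL9A3 at -1.75, COL9A1 at -1.61 and COL3A1 at -1.60. COL1A1 rests on 11 and 52 UMIs there. COL15A1 was 0.09 in that cluster, from 5 and 99 UMIs. In the cluster with 1282 and 90 cells COL2A1 was -2.19, COL3A1 -1.80, COL9A1 -1.45, COL9A3 -1.16 and COL23A1 -1.10, with 3 to 9 UMIs at 6 months, and COL1A1 was -0.02. In the remaining cluster, with 60 cells at 6 months, COL3A1, COL2A1 and COL9A3 had no UMI at 6 months and COL1A1 had 59 and 2 UMIs. At a clustering resolution of 0.5, or with collagen genes kept in the clustering, 2 chains (COL23A1 and COL9A1) were 2-fold lower, and COL3A1 was -0.45 and -0.60. COL9A3 was -0.94 with free RNA subtracted and -0.67 as a mean of per-cell CPM, and COL15A1 was 0.15 with the stricter filter and 0.48 at resolution 2.0. With doublets kept, or with an unnamed cluster that carried 6 stem markers added, no chain was 2-fold higher.

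**Figure D5:**
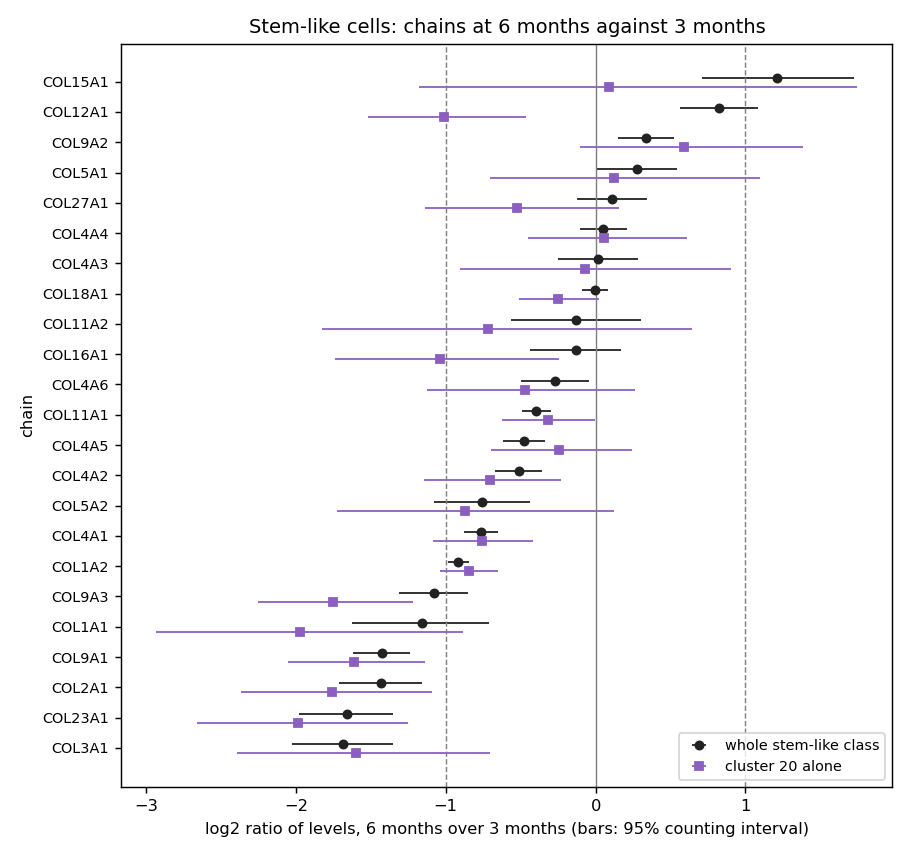
Log2 ratio of the 6-month over the 3-month level for the 23 chains compared in stem-like cells, for the whole class and for the cluster with 158 and 1939 cells (cluster 20) alone, with 95% counting intervals and dashed lines at 2-fold in each direction. COL3A1, COL23A1, COL2A1, COL9A1, COL9A3 and COL1A1 lie below -1 in both, and COL15A1 is above 1 for the class and at 0.09 in the cluster.

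In endocrine-like cells 16 chains could be compared, and 1 was 2-fold lower (5.82% of all genes) and 0 were 2-fold higher (1.16% of all genes). The chain was COL11A2, from 64 and 37 UMIs (-1.06, -1.68 to -0.45), which this class did not hold above free RNA. Of the 16 chains, 14 were lower at 6 months, with a median log2 of -1.64 beside -0.07 over all genes compared. The other chains past 2-fold were not counted, as they lay below 0.5 of the all-cell level in the higher library. COL1A2 went from 16.2 to 3.08 CPM in the class, but neither level reached 0.5 of that over all cells, and 668 of its 1178 UMIs at 3 months came from 1 endocrine-like cluster of 509 cells, with 94 cells at 6 months. In that cluster COL1A2 was level, at 166 and 174 CPM. In lactotroph-like cells 3 chains could be compared and 2 were 2-fold lower (1.55% of all genes), with 0 higher (24.6% of all genes). All 3 were lower at 6 months, where the median log2 over all genes compared was 0.64. COL5A2 was lower by -1.22 on the log2 scale (-1.45 to -1.004), but the class lay in different clusters at each age. COL5A2 was at -1.30 in the lactotroph-like cluster of 455 and 1266 cells and at -0.82 in that of 1687 and 53 cells. Another endocrine-like cluster, of 136 and 3225 cells, was given no finer name although lactotroph was its nearest class, with 4 of 5 lactotroph markers and PRL at 44.4% and 50.6% of UMIs. COL5A2 was higher there at 6 months, at 5.47 CPM (11 UMIs) and 11.6 CPM (730 UMIs), a log2 difference of 1.08 (0.23 to 2.09). COL27A1 had 132 and 3 UMIs in lactotroph-like cells. Somatotroph-like cells had 4 chains to compare and 0 that were 2-fold higher (1.11% of all genes) or lower (0.733% of all genes), and gonadotroph-like cells had 2, with 0 higher (2.24% of all genes) and 0 lower (6.34% of all genes). With the stricter cell filter both lactotroph-like differences changed sign, to 0.11 for COL5A2 and 2.89 for COL27A1. The lactotroph-like class was then a single cluster of 732 and 45 cells, in place of 2142 and 1319 cells. These values thus compare a different set of cells.

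The genes that fold, cut, link and bind collagen chains were followed as 6 lists, with the 4 members of most stromal-like UMIs named from the first 5. Of 20 genes for chain modification and folding, stromal-like cells held 8 at 3 months, 1 in both libraries, and stem-like cells held 10 in both. The shares of all genes held, for these and the following lists, were 5.77% and 1.44% in stromal-like and 21.7% and 21.8% in stem-like cells. The 1 was SERPINH1, the collagen chaperone HSP47, at 828 and 576 CPM in stromal-like, 778 and 980.0 CPM in endothelial-like and 357 and 349 CPM in stem-like cells, against 78.4 and 68.3 CPM in immune-like cells. PPIB (1935 and 1668 CPM) and P4HB (271 and 177 CPM) were not held, with immune-like levels of 1026 and 1086 CPM and of 148 and 153 CPM, and CRTAP had 111 CPM in both. Of 13 genes for propeptide removal and cross-linking, stromal-like cells held 2 in both libraries, PCOLCE (1338 and 1073 CPM) and LOXL1 (173 and 164 CPM). Stem-like cells had LOXL1 at 124 and 142 CPM but PCOLCE, the enhancer of type I propeptide removal, at 4.78 and 5.28 CPM, below the immune-like 13.0 and 10.7 CPM. LOXL4 and TLL2 had 15 and 1 and 8 and 1 stromal-like UMIs.

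Of 12 matrix partners, stromal-like cells held 9 at 3 months and 5 in both libraries. SPARC had 2389 and 1439 CPM, BGN 1822 and 1249 CPM, POSTN 1181 and 393 CPM and THBS1 389 and 844 CPM. Of 5 compared, POSTN was 2-fold lower at 6 months (-1.59), as were 18.2% of all genes, and THBS1 2-fold higher (1.12), as were 1.74%, and the median of the 5 was -0.73. Immune-like THBS1 went from 32.8 to 241 CPM. BGN, a proteoglycan that binds collagen fibrils, was also held by stem-like cells, at 3.77 and 5.08 CPM beside 0.888 and 0.866 CPM in immune-like cells. Of 17 genes for breakdown and its inhibitors 2 were held by stromal-like cells in both libraries, TIMP1 (966 and 752 CPM) and MRC2 (101 and 157 CPM), while TIMP2 and CTSK were not. Of 10 receptors 1 was held in both, ITGA1 (293 and 144 CPM), which was 2-fold lower at 6 months (-1.03). ITGB1 (666 and 497 CPM) and DDR2 (81.3 and 45.8 CPM) were held at 3 months only. DDR1, a collagen receptor of epithelial cells, was held by stem-like cells at 157 and 195 CPM. Of 13 genes of the TGF-beta axis, which drives collagen transcription in many tissues, stromal-like cells held 4 at 3 months and 0 in both, and stem-like cells held 4 in both, among them LTBP1 (144 and 117 CPM) and TGFB2 (149 and 120 CPM). In stem-like cells 0 genes of the 6 lists were 2-fold lower at 6 months (1.51% of all genes), and 2 of the 11 compared in the TGF-beta axis were 2-fold higher (3.64% of all genes).

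Finally, 9 chains were held by no broad class in either library: COL5A3, COL6A6, COL7A1, COL8A2, COL17A1, COL19A1, COL24A1, COL25A1 and COL28A1. Of these COL7A1, the anchoring fibril chain, was the most counted, with 165 and 259 UMIs over all cells, of which endocrine-like cells carried 52.7% and 61.4% at 1.20 and 1.82 CPM, beside 0.592 and 1.30 CPM in immune-like cells. COL19A1 had 20 of 21 UMIs in endocrine-like cells at 3 months and 5 of 8 at 6 months. COL6A6 had 16 of 18 UMIs there at 3 months and 13 of 19 at 6 months, COL28A1 had 6 of 8 and 19 of 26, and COL5A3 lay mainly in stromal-like cells at 3 months, as given above. None of these met the rule in any broad class. Among the finer endocrine classes COL7A1 met it in lactotroph-like cells at 6 months and in somatotroph-like cells at 3 months. COL8A2, COL17A1, COL24A1 and COL25A1 were spread over several classes. Unnamed clusters also carried collagen. The one with 6 stem markers (1614 and 302 cells) had COL1A2 at 305 CPM, COL18A1 at 119.9 CPM and COL4A5 at 57.3 CPM at 3 months, each above the stem-like class.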

How the data were processed

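Each library came as 1 matrix of UMI counts, which the authors deposited without normalization. Cell Ranger made it, in version 5.0.0 by the submitters' processing notes and 5.0.1 per the file headers. No source used here names the genome build, so no coordinates are printed. RefSeq's table (assembly ARS-UI_Ramb_v3.0) matched 22726 of 23141 gene identifiers. The filter asked for 500 genes and 1000 UMIs per cell, and Scrublet removed 922 (5.63%) and 570 (4.30%) as doublets. Cells were clustered in scanpy 1.11.5 (Python 3.11.15) with 3000 variable genes, without hormone, ribosomal, mitochondrial and collagen genes, 30 components, 15 neighbours and Leiden resolution 1.0, giving 31 clusters. A cluster was named by at least 3 markers of a class, raised 1.5-fold and seen in at least 10% of its cells. A marker list of that class needed a mean log2 fold of at least 0.7. No other class could have more markers among the 10 leading genes of the cluster. The unnamed cluster with 6 stem markers failed this last condition, as 1 stromal and 0 stem markers were among its leading genes. Raw counts were summed per class and library and given as CPM. The chains to be given with full values were those that a class held in both libraries and those with the largest age differences by interval bound. From each of the first 5 pathway lists the 4 genes with most stromal-like UMIs were named. Members, lists and classes were chosen with earlier results of these data known. The naming rule was rewritten after the clusters were seen, and the immune-like pool includes 2 clusters close to dendritic cells and to neutrophils or mast cells. Stem-like clusters carry 6 to 8 of the stromal markers. Statistical scripts were tested on simulated data. Alternatives changed the filter, resolution, reference, thresholds, doublets, free RNA, scaling (edgeR 4.0.16 TMM) and thinning. Free RNA was subtracted from the class sums at 1 share per library, 8.45% and 21.4%. This share was a median over PRL, GH, CGA and LHB of their level in pooled endothelial-like and immune-like cells over all cells. Classes differed from it, with ratios of 0.0451 (LHB) to 0.155 (GH) in stem-like cells at 6 months.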

Additional observations from a re-analysis of the deposited data

How the results depend on the processing

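No paired analysis was possible because each age has 1 library. Each alternative below was set against the counts given above, and for single chains 1482 of 1556 values of the fold over the immune-like pool kept direction and side. That total includes values that could not lose a call. The 2-fold threshold and the absence of a UMI minimum only loosen the rule, and each kept all 112 values. Adding the unnamed cluster to stem-like cells, or leaving out PRL-rich stromal-like cells, altered only 1 class. With lymphocyte-like cells as the reference 90 values were kept and 22 were weaker. That reference had 531994 UMIs at 3 months and 6481110 at 6 months. At 3 months a chain below 5.64 CPM could therefore not reach 3-fold above it. The number of chains held moved past 1.5 times in the following cases: stromal-like at 6 months, 26 without a minimum of UMIs; endothelial-like, 6 at 3 months with doublets kept and 8 at 6 months without a minimum; stem-like at 3 months, 10 against lymphocyte-like cells. Endocrine-like cells held 0 at 3 months at resolution 2.0, with doublets kept and at 5-fold, and 1 at 6 months with the stricter filter, with doublets kept and at 5-fold. Between ages, with 20 UMIs as the minimum, stromal-like cells had 1 chain higher and 4 lower, stem-like cells 2 higher and endocrine-like cells 1 higher and 3 lower. Stem-like cells had 0 higher with doublets kept or with the unnamed cluster added (chosen after seeing the data), and 2 lower at resolution 0.5 or with collagens in the clustering. Endocrine-like cells had 1 higher with the stricter filter and at resolution 2.0, and 0 lower with doublets kept, free RNA subtracted or TMM scaling, and 2 lower by the mean of per-cell CPM. Shares of cells moved with depth by construction. At 1000 UMIs and without thinning, COL1A2 in stem-like cells was 17.03% and 57.4% at 3 months and 9.62% and 48.1% at 6 months. COL4A1 in endothelial-like cells was 45.9% and 74.4%, then 54.9% and 85.3%. COL5A2 in lactotroph-like cells was 3.27% and 29.2%, then 1.59% and 10.4%. COL1A1 in stromal-like cells was 89.6% at 3 months and 64.7% at 6 months at 2000 UMIs, 72.0% at 1000 UMIs at 3 months and 86.2% without thinning at 6 months. Signs reversed for COL7A1 in lactotroph-like cells at 6 months (0.990 with both the looser and the stricter filter, relative to the immune-like pool), for COL27A1 (2.89) and COL5A2 (0.11) in lactotroph-like cells with the stricter filter, and for COL1A1 in stem-like cells within 1 cluster (0.65). The cause of these reversals was not tested. With the stricter filter the lactotroph-like class had 732 and 45 cells, so its values came from a different set of cells. The stricter filter left 17 stromal-like cells at 6 months, under the minimum of 25, so it gave no stromal-like value there. With that filter Scrublet called 817 doublets at 3 months and 0 at 6 months. Its 6-month values are therefore also values with doublets kept. Among the broad classes the UMI total was lowest in the 29 stromal-like cells at 6 months. A chain with 0 UMIs among their 152866 could still be at 19.6 CPM.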
